A study of Mus musculus with 40 samples.

Results

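Weak lone PU.1 sites are described here: PU.1 peaks of low fold enrichment at which the lists of CTCF, C/EBPb and SMARCA5 peaks show nothing. They were chosen by measured values, namely a deposited fold enrichment below 15 and no base shared with a peak of the other 3 lists, on chr1 to chr19 and chrX of mm39. The rule found 21466 sites, which were 31.7% of the 67674 PU.1 peaks on those chromosomes (SD 1.90 over 20 chromosomes). They made up 45.7% of the 46950 PU.1 peaks with a fold enrichment below 15, and 76.0% of the 28259 PU.1 peaks that lay alone. The remaining 6793 lone peaks, at a fold enrichment of 15 or more, are called strong lone peaks below.

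The cells were primary mouse bone marrow-derived macrophages (BMDMs). Wild-type cells came from Csf1r-Cre mice and knockout cells (Smarca5-/-) from Smarca5lox/lox Csf1r-Cre mice, so both genotypes carried Cre under the Csf1r promoter, which is active in cells of the myeloid lineage, and both were given 4-hydroxytamoxifen daily over 7 days of differentiation. PU.1, C/EBPb and CTCF were immunoprecipitated from untreated cells, with 2 wild-type and 2 knockout libraries each. SMARCA5 was immunoprecipitated after micrococcal nuclease digestion in 8 libraries, 2 for each genotype untreated and 2 for each genotype after 2 h of lipopolysaccharide (LPS) at 10 ng/ml. H3K27ac libraries were not analysed here. Each protein had 1 consensus peak list for all its libraries, and 0 value columns belonged to a library. Wild-type and knockout cells, or untreated and LPS-treated cells, could therefore not be compared, and a site here may have been found in either genotype or in both. The labels state neither the age of the mice nor how many stand behind a library.

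PU.1 is a transcription factor of the ETS family that recognises purine-rich DNA and is needed for the development of macrophages and other myeloid cells. In macrophages it occupies very many sites, and at enhancers it often binds together with C/EBPb, another factor that sets macrophage identity. SMARCA5 is the ATPase of ISWI complexes, which slide and space nucleosomes, and CTCF marks insulators and the anchors of chromatin loops. The sites described here are thus places where the PU.1 list stands without the partners that were profiled. Peaks of a list are not biological replicates, and fold enrichment and overlap chose the members, so values are given with their spread over chromosomes and no test was made.

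The label of weak sites fitted fold enrichment by construction, and it fitted -log10 q for most sites. Fold enrichment was deposited as a ratio of a peak's signal to background, and how the background was set is not given. It had a median of 9.64 in the members and ran from 2.85 to 14.999. The median was 18.6 in strong lone peaks and 11.3 over all PU.1 peaks. The -log10 q, a deposited measure of a peak's significance, had a median of 27.96 in the members, with 10% of them below 14.96 and 10% above 53.5. Strong lone peaks had a median -log10 q of 94.9. The 2 classes overlapped on this scale: 3949 members, or 18.4%, lay above the lowest strong lone peak at 43.96, and 380 members, or 1.77%, lay above the median of the strong lone peaks. Those 380 sites were weak by fold enrichment but not by -log10 q.

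The threshold cut through a continuous range. The members just inside it were on chromosome 8 from 122787732 to 122788161, chromosome 1 from 94865731 to 94866151, chromosome 7 from 28488169 to 28488572, chromosome 4 from 63779379 to 63779869 and chromosome 6 from 96993029 to 96993432, at fold enrichments of 14.998 to 14.999 and -log10 q values of 53.6, 58.2, 65.3, 93.0 and 47.5. The lone peaks just outside it had -log10 q values of 69.6, 145.2, 55.0, 53.5 and 45.8, in order of rising fold enrichment. Their positions were chromosome 2 from 27359287 to 27359741, chromosome 5 from 114008887 to 114009370, chromosome 2 from 120321015 to 120321473, chromosome 4 from 107160033 to 107160430 and chromosome 3 from 133441411 to 133441782. The 591 members at a fold enrichment of 14.5 or more had a median -log10 q of 53.2 and a median width of 433 bp. The 634 strong lone peaks below 15.5 had 56.4 and 436.5 bp.

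The members were narrow, with a median width of 379 bp (SD of the chromosome medians 3.12, n = 20 chromosomes). The widths ran from 134 to 1627 bp, with 10% below 312 bp and 10% above 507 bp. Strong lone peaks had a median of 475 bp, wider by 97.1 bp on average over the chromosomes (SD 6.11), and were the wider class on 20 of 20 chromosomes. Peaks under 300 bp made up 5.71% of the members and 0.0589% of the strong lone peaks, while peaks over 800 bp made up 1.35% and 1.21%. Not all PU.1 peaks of low fold enrichment were as narrow. The 12376 PU.1 peaks that had the same ceiling of 15 but overlapped SMARCA5, and neither CTCF nor C/EBPb, had a median width of 414 bp, a median fold enrichment of 8.70 and a median -log10 q of 41.8. Members were thus narrower and lower in -log10 q than these, but higher in fold enrichment, on 20 of 20 chromosomes for each of the 3 measures. Peaks under 300 bp made up 5.21% of this class, close to the members' share, and peaks over 800 bp 5.08%. The summit lay in the middle 20% of the peak in 76.3% of members, in 93.3% of strong lone peaks and in 66.9% of the peaks with SMARCA5 only.

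**Figure D1:**
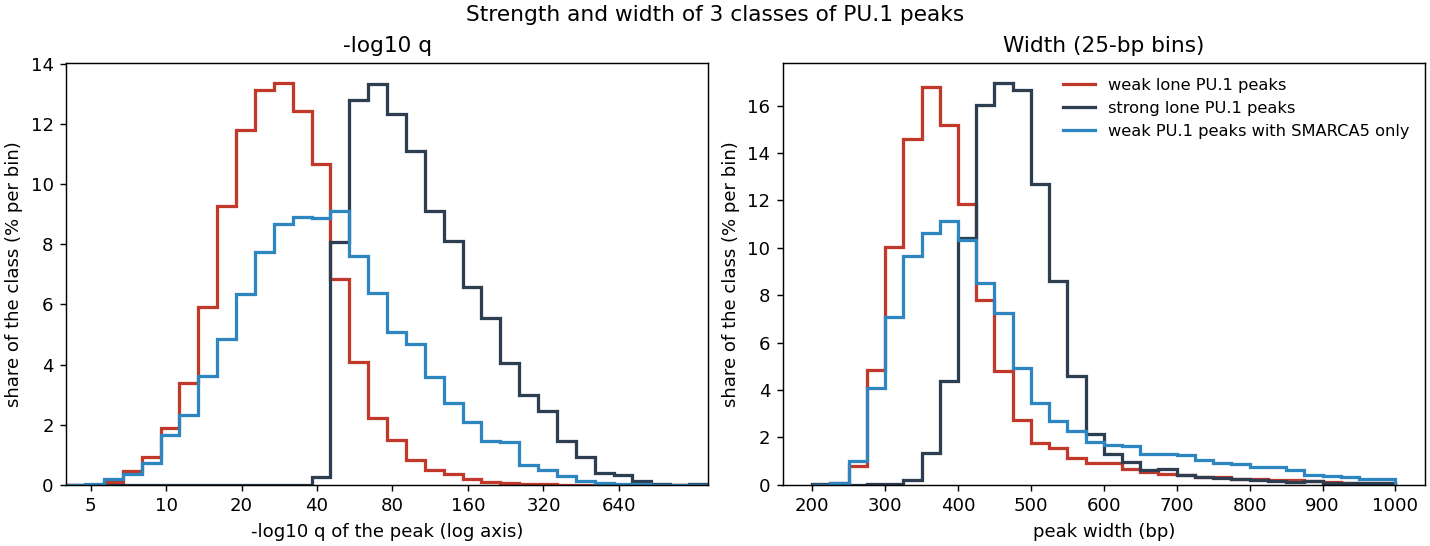
Share of each class of PU.1 peaks (y axis, % per bin) by -log10 q on a log axis (left) and by width in bp (right), for weak lone peaks (n = 21466), strong lone peaks (n = 6793) and weak peaks with SMARCA5 only (n = 12376). The weak lone peaks sit at lower -log10 q and smaller width (medians 27.96 and 379 bp), and their upper tail runs under the strong lone peaks (medians 94.9 and 475 bp).

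Among the members, width and -log10 q did not run together at the low end. When the members were ranked by -log10 q and divided into 10 equal groups, the median width was 371 bp in the lowest group, 349 bp in the next one and 421 bp in the highest. Fold enrichment rose from a median of 6.47 in the lowest group to 12.9 in the ninth and was 12.6 in the highest, although the median -log10 q rose from 46.8 to 67.0 over these last 2 groups. The 5 members with the highest -log10 q were on chromosome 12 from 91701386 to 91701866, at 348.7, chromosome 6 from 87473072 to 87473555, at 341.1, chromosome 5 from 3555528 to 3555979, at 341.0, chromosome 9 from 40999213 to 40999764, at 303.1, and chromosome 4 from 43974937 to 43975369, at 281.2. Their fold enrichments were 12.7, 13.4, 12.1, 13.4 and 12.5, and each had another PU.1 peak within 3072 bp. The 3 members with the lowest -log10 q lay on chromosome 7 from 75267274 to 75267625, at 5.38, chromosome 2 from 150429447 to 150429769, at 5.72, and chromosome 6 from 29420782 to 29421149, at 5.73. Their nearest PU.1 peaks were 6557, 8164 and 13196 bp away.

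The 3 widest members did not resemble each other. The widest, on chromosome 11 from 49118193 to 49119819, spanned 1627 bp at a -log10 q of 9.21 and a fold enrichment of 5.20. The others were on chromosome 4, from 6431403 to 6432766 and from 156368424 to 156369763, with -log10 q values of 125.5 and 121.7 and fold enrichments of 11.01 and 11.46.

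Most members had another PU.1 peak within 10 kb, but a smaller share of them than of all PU.1 peaks. Another PU.1 peak lay within 10 kb of 13094 members, or 61.0% (SD 3.60 over chromosomes), within 5 kb of 34.7% and within 1 kb of 6.55%. These shares were 69.2%, 43.2% and 12.7% over all PU.1 peaks. The median gap, counted from edge to edge, was 7425 bp, and the median over chromosomes ran from 6534 bp on chromosome 7 to 9996.5 bp on chromosome X. Over all PU.1 peaks the median gap was 5913 bp, and for the peaks with SMARCA5 only it was 2335.5 bp. Strong lone peaks were spaced more widely, with a median gap of 9874 bp, and their median exceeded that of the members on 20 of 20 chromosomes.

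The difference in spacing between weak and strong lone peaks lay mainly at gaps below 5 kb. In each of the first 4 bins of 1 kb, from 0 to 4 kb, the members held 6.41% to 7.34% of their class, and the strong lone peaks 2.12% to 2.46%. From 4 to 5 kb the shares were 7.24% and 5.71%, and from 5 to 6 kb 7.22% and 9.38%. From 6 to 20 kb the strong lone peaks held the larger share in every bin, and both shares declined. Shares with a PU.1 neighbour within 5 kb were 34.7% for weak and 14.8% for strong lone peaks, while within 50 kb they were 93.4% and 93.3%.

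**Figure D2:**
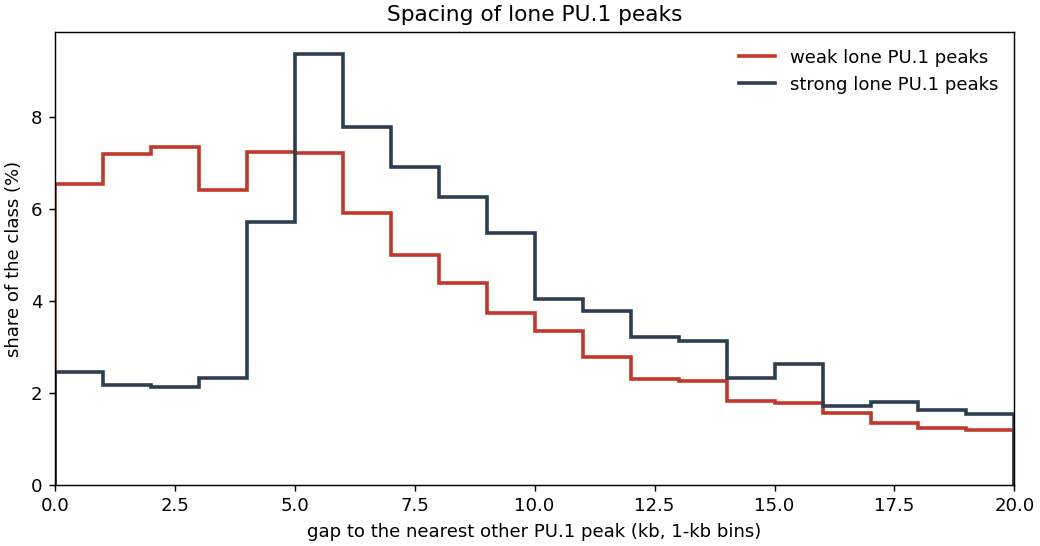
Share of weak (n = 21466) and strong (n = 6793) lone PU.1 peaks (y axis, %) by the gap to the nearest other PU.1 peak (x axis, kb, bins of 1 kb). The strong lone peaks step up between 4 and 6 kb, from 2.33% to 9.38% per bin, where the weak lone peaks stay near 7%.

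Fold enrichment itself moved with this spacing when -log10 q was held in a narrow range. Among all lone PU.1 peaks with a -log10 q of 40 to 60, the 1195 peaks with a PU.1 neighbour within 4 kb had a median fold enrichment of 10.1, with a range from the 25th to the 75th percentile of 8.35 to 11.7. The 2878 peaks with no PU.1 neighbour within 6 kb had 14.4, from 13.5 to 15.5. Median -log10 q was 47.9 and 48.5 in these 2 sets. As a result 99.2% of the former and 64.9% of the latter fell below the threshold of 15. At a -log10 q of 60 to 90 the medians were 11.9 and 17.5, and 86.3% and 11.7% were below the threshold. At 20 to 30 they were 7.96 and 9.87, where all peaks of both sets lay below it. The median was lower with a near neighbour on 20 of 20 chromosomes in each of the 3 ranges.

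The strength of the neighbour went with the size of this difference. At a -log10 q of 40 to 60, lone peaks whose PU.1 neighbour within 4 kb had a -log10 q of at most 30 had a median fold enrichment of 11.7 (n = 363), and those whose neighbour exceeded 100 had 7.54 (n = 249). Nearness to SMARCA5 went with smaller differences. With no PU.1 peak within 10 kb, lone peaks that had SMARCA5 within 4 kb had a median of 13.7 (n = 92, SD of the chromosome medians 1.27), against 14.6 with no SMARCA5 peak within 10 kb (n = 1664, SD 0.228). At a -log10 q of 60 to 90 these medians were 15.8 (n = 62, SD 1.37) and 17.9 (n = 1000, SD 0.351). MACS2, the peak caller named in the submitters' processing notes, sets the signal of a peak against a background estimated from its surroundings. The part of that background in the step near 5 kb was not tested.

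**Figure D3:**
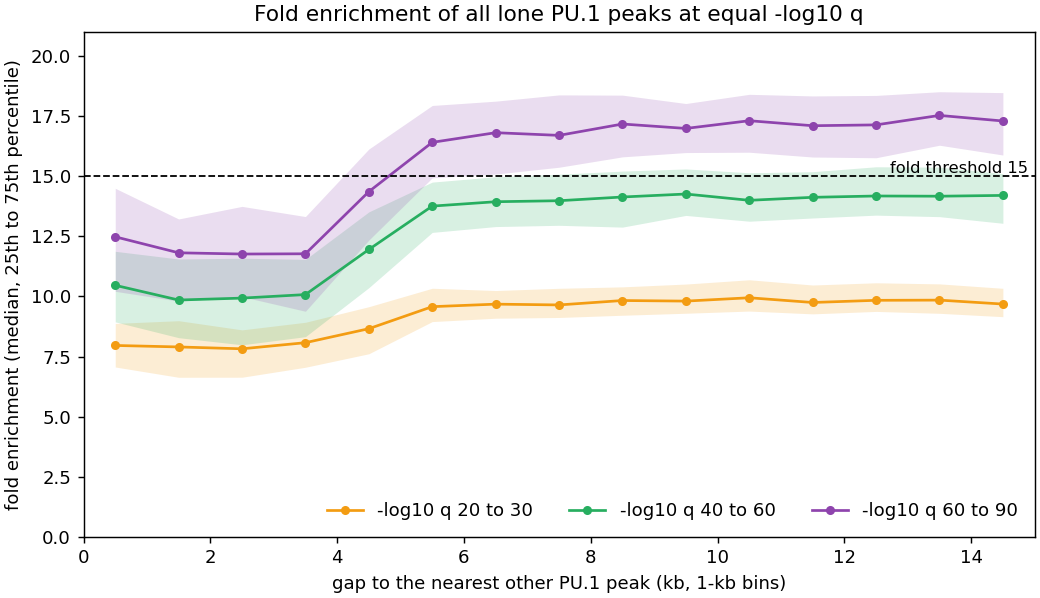
Median fold enrichment (y axis; bands from the 25th to the 75th percentile) of all lone PU.1 peaks, weak and strong, by the gap to the nearest other PU.1 peak (x axis, kb, bins of 1 kb) in 3 ranges of -log10 q. Each curve varies little below 4 kb, rises between 4 and 6 kb and changes more slowly beyond. For -log10 q of 60 to 90 the rise crosses the threshold of 15, and the median moves on from 16.4 at 5 to 6 kb to 17.5 at 13 to 14 kb.

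The rule on fold enrichment thus included some crowded peaks of considerable -log10 q, which were a minority of the members. As a whole the members were less crowded than all PU.1 peaks, of which 43.2% had another PU.1 peak within 5 kb. Of the 380 members above the median -log10 q of strong lone peaks, 93.7% had a PU.1 peak within 5 kb, against 34.7% of all members. Among the members in the highest of 10 groups by -log10 q that share was 72.5%, and in the lowest group 26.6%. At equal -log10 q, from 50 to 60, the 1110 members had a median gap of 4783 bp and the 853 strong lone peaks 13681 bp. Their median distances to SMARCA5 were 8708 and 22053 bp. The classes are split by fold enrichment, which was lower near other PU.1 peaks when -log10 q was held in a narrow range. The difference in gap is therefore the same relation seen from the other side, not a separate result. The order of the classes depended on the measure of strength. When the same number of PU.1 peaks was taken as weak by -log10 q, 57.9% of weak and 62.4% of strong lone peaks had a PU.1 peak within 10 kb, where by fold enrichment the shares were 61.0% and 50.6%.

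Members near other PU.1 peaks had lower fold enrichment, higher -log10 q and a nearer SMARCA5 peak than isolated ones. The 4507 members with a gap of 2 to 5 kb had a median fold enrichment of 8.71, a median -log10 q of 32.3 and a median width of 374 bp. The 4208 members with a gap of 10 to 20 kb had 10.2, 26.6 and 384 bp. For the 607 members whose nearest PU.1 peak was over 100 kb away the values were 10.1, 24.4 and 366 bp. The median distance to SMARCA5 over these sets ran from 5083 bp to 265561 bp. It was not shortest at the smallest gaps. Members with a gap of at most 1 kb had 10155.5 bp, those at 1 to 2 kb 7934.5 bp and those at 5 to 10 kb 8126 bp.

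The neighbours of members were of all kinds. The nearest PU.1 peak was itself a member in 41.2% of cases, a strong lone peak in 10.98% and a peak with at least 1 of the other 3 proteins in 47.8%. Around strong lone peaks the shares in the same order were 38.4%, 12.04% and 49.6%. Of all PU.1 peaks, 31.7% were members and 10.04% were strong lone peaks, so that 41.8% lay alone. The rest had at least 1 of the other 3 proteins, a larger share than among the neighbours of either class. The share of all PU.1 peaks that overlapped each single protein is not given here. The nearest PU.1 peak of a member overlapped SMARCA5 in 37.0%, C/EBPb in 23.7% and CTCF in 7.35%. For strong lone peaks the neighbour overlapped these in 39.3%, 24.5% and 7.21%, close to the members' values. The neighbour had the higher -log10 q for 67.9% of members and for 24.95% of strong lone peaks. Median -log10 q already differed between the classes, at 27.96 and 94.9, and its part in this order was not tested.

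Members often followed each other along the chromosome, but few formed dense groups. In the order of PU.1 peaks along each chromosome, 13468 members, or 62.7%, stood in a run of 2 or more, and 8.28% in a run of 5 or more. Members made up 31.7% of all PU.1 peaks, so many runs would arise in any order. The part of this share in the run counts was not tested. The 2 longest runs held 14 members each and were singled out after their values were seen. Both lay on chromosome 5. The first, from 10740584 to 12094919, extended over 1.35 Mb with 2 CTCF peaks and 0 peaks of C/EBPb or SMARCA5 between its ends, and its -log10 q values ran from 7.42 to 37.2. The second, from 14099150 to 16480228, extended over 2.38 Mb with 13 CTCF, 2 C/EBPb and 5 SMARCA5 peaks between its ends, and its -log10 q values ran from 12.98 to 34.9.

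Joined at gaps of at most 10 kb, the members formed 2947 clusters of 2 or more with 6618 members, of which 17 clusters held 5 or more, and 14848 members, or 69.2%, were joined to no other member. The largest cluster, on chromosome X from 169086031 to 169112795, held 8 members in 26.8 kb, with fold enrichments of 3.26 to 7.79 although -log10 q reached 81.9. It contained 8 PU.1 peaks in all, with 1 CTCF and 2 C/EBPb peaks between them. The next, on chromosome 4 from 88691386 to 88721024, held 7 members among 8 PU.1 peaks in 29.6 kb and 1 SMARCA5 peak, with fold enrichments of 4.69 to 8.05 and -log10 q values of 9.84 to 24.2. On chromosome 11 from 114901156 to 114931382, 7 members stood among 10 PU.1 peaks and 3 C/EBPb peaks, with fold enrichments of 4.56 to 8.19 and -log10 q values of 10.6 to 31.8. None of the members in these 3 clusters exceeded a fold enrichment of 8.19, below the median of 9.64 of all members.

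SMARCA5 was the nearest of the other 3 lists for 48.6% of members, C/EBPb for 25.9% and CTCF for 25.5%. For strong lone peaks these shares were similar, at 45.9%, 26.5% and 27.6%. The SMARCA5 list was also the largest and widest on these chromosomes, with 37054 peaks of a median width of 2554 bp. C/EBPb had 30895 peaks (median 437 bp) and CTCF 25280 (median 402 bp). The part of list size and width in this order, and in the distances below, was not tested. The median distance to the nearest SMARCA5 peak was 13283.5 bp (SD of the chromosome medians 2591.7, n = 20 chromosomes), with 25% of members nearer than 5257 bp and 10% farther than 83790 bp. The median distance was 15265 bp to C/EBPb and 22501.5 bp to CTCF. Since the rule removes overlap, the smallest distance it allows is 1 bp. Only 3.23% of members (n = 693) came within 1 kb of a SMARCA5 peak, 3.90% within 1 kb of C/EBPb and 2.84% within 1 kb of CTCF. Within 10 kb the shares were 42.1% (SD 4.26 over chromosomes), 37.6% (SD 3.47) and 28.6% (SD 4.90).

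Strong lone peaks lay somewhat farther from the other lists. Their median distance was 15912 bp to SMARCA5, greater than that of the members on 19 of 20 chromosomes, and 17747 bp to C/EBPb, greater on 19 of 20. For CTCF it was 23805 bp, greater on 13 of 20 chromosomes, a mean difference over chromosomes of -1464 bp for members minus strong lone peaks with an SD of 2841 bp, so the difference was smaller than its spread. With weakness set by -log10 q the order for SMARCA5 turned, to 14422 bp for weak and 11280 bp for strong lone peaks. PU.1 peaks of low fold enrichment with SMARCA5 only were nearer to C/EBPb, at a median of 4701.5 bp, and to CTCF, at 13826.5 bp, than the members on 20 of 20 chromosomes.

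**Figure D4:**
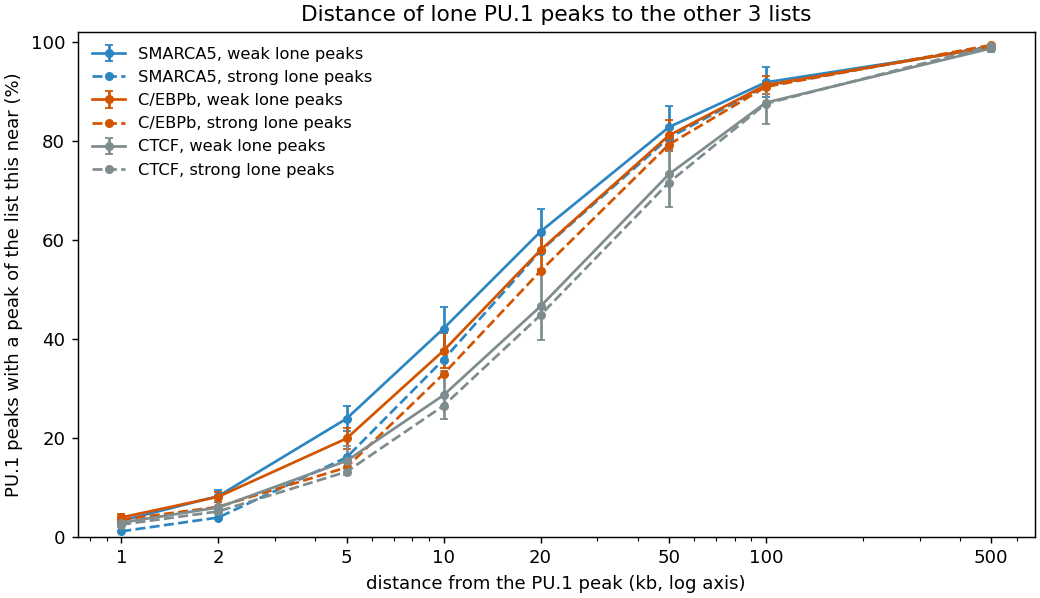
Share of lone PU.1 peaks (y axis, %) with a SMARCA5, C/EBPb or CTCF peak within a distance (x axis, kb, log axis), for weak (solid, bars are the SD over 20 chromosomes) and strong (dashed) lone peaks. At 10 kb the weak lone peaks reach 42.1%, 37.6% and 28.6%, and the strong lone peaks 35.8%, 32.9% and 26.5%.

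A small part of the members lay far from every other peak. No peak of any of the 4 lists lay within 50 kb of 814 members, or 3.79%, and within 100 kb of 373, or 1.74%. For strong lone peaks these shares were 3.31% and 1.35%, and for all PU.1 peaks 1.54% and 0.687%. All PU.1 peaks include those that overlap another list, which the rule removes from both lone classes. The most isolated member was on chromosome 18 from 18018140 to 18018539, 1672947 bp from the nearest peak of any list, with a width of 400 bp, a fold enrichment of 9.07 and a -log10 q of 20.9. The next were on chromosome X from 79274418 to 79274767, chromosome 7 from 22092081 to 22092473, chromosome 3 from 46049707 to 46050046 and chromosome 1 from 109515305 to 109515861. Their fold enrichments were 9.36, 9.51, 7.27 and 9.06 and their -log10 q values 22.0, 22.6, 14.1 and 21.2, all below the members' medians.

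The density of members followed that of the other peaks across the genome. Chromosome X had the fewest members per Mb, 3.23, and also the fewest PU.1 peaks, 9.63. Chromosome 11 had the most of both, 11.6 and 38.6. The share of PU.1 peaks that were members varied less, from 27.9% on chromosome 7 to 35.1% on chromosome 13, with 33.5% on chromosome X. Over 2573 bins of 1 Mb, the number of members correlated with the number of other PU.1 peaks (Spearman's rho 0.901), of C/EBPb peaks (0.894), of SMARCA5 peaks (0.878) and of CTCF peaks (0.817). The bins come from the same 4 lists, neighbouring bins are not independent, and the part of mappable sequence or chromatin domains in these correlations was not tested. The bin with the most members, on chromosome 2 from 166000000 to 166999999, held 32 members with 53 other PU.1 peaks and 39 SMARCA5 peaks.

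Members were scarce where SMARCA5 peaks were absent, as were all PU.1 peaks, yet formed most of the PU.1 peaks found there. The 558 bins without a SMARCA5 peak held 301 members, a mean of 0.539 per bin, and the 394 bins with 31 or more SMARCA5 peaks held 7143, a mean of 18.1. Members made up 70.8% of the 425 PU.1 peaks in the former and 27.8% of the 25696 in the latter. The rule favours this direction, since a PU.1 peak cannot overlap SMARCA5 where it is absent. The 70.8% also lay near the 69.4% of all PU.1 peaks that had a fold enrichment below 15. It was below the 76.0% of lone PU.1 peaks that were members. In 58 bins, 73 members were the only peaks of any list.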

How the data were processed

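Chromatin immunoprecipitation sequencing covered 40 libraries in 20 groups of 2, and 4 consensus peak lists were used. The submitters' processing notes name mm39 as the build, and MACS2 2.2.7.1, STAR 2.7.9a, deepTools 3.5.1 and Picard 2.27.4 among the tools. What each tool did, how replicates entered and what made a peak a consensus peak is not given in the sources used here. Per peak the authors deposited a score, a fold enrichment (a ratio), and a -log10 q value (its -log10 p was not used). These values belong to each peak and were used to describe and rank peaks within the PU.1 list. Depth per library is unknown.

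Starts were read as 1-based: 26 PU.1 peaks start 1 above the previous end and 0 start 2 to 5 above it. Overlap means at least 1 shared base, and gaps run from edge to edge. Python 3.11.15, NumPy 2.4.6, pandas 2.3.3 and matplotlib 3.10.9 were used, and the interval steps were tested on simulated peaks. The members, classes and distances were chosen with earlier results of these data known. Regions named are the members highest and lowest in -log10 q, the widest, the most isolated, those on either side of the threshold and the largest clusters. Peaks on other sequences (122 of the PU.1 list) were left out. No genome sequence or gene annotation on mm39 was used here, so no sequence or gene is given.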

Additional observations from a re-analysis of the deposited data

Results flagged for a closer look

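The score column, used in no comparison of the report, carried a pattern in its decimals. The part after the decimal point was 0.25 or 0.75 in 5107 members, or 23.8% (SD 1.53 over 20 chromosomes), against 47.5% of strong lone peaks, 37.3% of weak peaks with SMARCA5 only and 36.6% of all PU.1 peaks. A mean of 4 whole numbers can end so and a mean of 2 cannot. How the authors made the score is not stated in the labels. The share followed -log10 q: it was 7.69% in the lowest of 10 groups of members and 45.9% in the highest. At a -log10 q of 45 to 60 it was 40.7% in members and 37.9% in strong lone peaks, and at 60 to 90 it was 47.3% and 48.6%. At 20 to 30, members had 18.8% and weak peaks with SMARCA5 only 27.55%. No test was made.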

How the results depend on the processing

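Of the settings below, the 0-based starts and the 2 differences between weak and strong lone peaks were added after seeing the data. Each value was compared with the 95% interval of the value reported, from counting error alone with peaks taken as independent. For the difference in median distance, the limits joined the separate 95% intervals of the 2 medians, which is wider than a 95% interval. The share of PU.1 peaks that were members, 31.7%, was 24.7% with a fold enrichment below 12, 35.8% with weakness set by -log10 q, 32.75% with an overlap of at least 50% of the shorter peak, 28.9% when peaks within 1 kb counted as overlap and 36.6% without SMARCA5 peaks over 5 kb. In the same order without the 50% overlap, the share of members with another PU.1 peak within 10 kb, 61.0%, was 63.2%, 57.9%, 59.2% and 65.4%. It was 34.7% within 5 kb, 80.6% within 20 kb and 30.8% with members alone as neighbours. The median distance to SMARCA5, 13283.5 bp, was 12699.5, 14422, 12762, 14381.5 and 14142 bp in the order of the first list. Members minus strong lone peaks, 10.4 points within 10 kb, was 19.95 within 5 kb, 4.23 within 20 kb and turned to -4.52 with weakness set by -log10 q. Their difference in median distance to SMARCA5, -2628.5 bp, then turned to 3142 bp; the causes were not tested. Autosomes only and 0-based starts kept these 5 results within their intervals. Of 30 other values (widths, -log10 q, distances to C/EBPb and CTCF), 15 left their intervals, 8 upward and 7 downward, and the 30 lay at 0.840 to 1.10 times the value reported. No paired analysis was possible because 0 value columns belong to a single library. A site missing from a list at unknown depth cannot be taken as unbound.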
